A study of Homo sapiens with 4 samples.

Results

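The genes described here are 9 markers that pathologists and clinicians use to name or target ovarian carcinoma: PAX8, WT1, MUC1, MUC16, MSLN, FOLR1, EPCAM, ESR1 and PGR. They were taken by name, as the rows of the deposited count and RPKM tables that carry these symbols. The names were chosen with earlier results of these data known. Of the 9, 8 had a row among the 19626 genes of the tables. MUC16, which encodes the CA125 antigen, was not analysed here. All data came from ES-2, an established line labelled as human ovarian clear cell carcinoma, in which an inversion on chromosome 11 joins YAP1 to MAML2 and yields the YM fusion. Cells of both groups carried the fusion and received pLKO.1 lentivirus on consecutive days, with a non-targeting shRNA in shCtl (n = 2) or an shRNA against MAML2 in shM2-3 (n = 2), and RNA was taken 96 hours after the first infection. The shM2-3 sequence lies in a part of MAML2 that the fusion retains, so both transcripts can be silenced by it, and the results rest on 1 line and 1 shRNA with no group free of virus. The libraries were read without strand as paired ends of 150 bases, and their estimated counts summed to between 20051083 and 23978660. The level read for MAML2 fell from 8.44 ± 0.243 to 3.05 ± 0.0776 RPKM (SD, n = 2 each), with 36.2% left. Both shM2-3 libraries lay below both shCtl libraries. Reads from the MAML2 exons that the fusion retains can count in this level, so native and fusion RNA were not separated.

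The markers belong to several kinds of protein. PAX8 and WT1 are transcription factors of the developing urogenital tract, and their staining is used to assign a carcinoma to the Müllerian ducts and, for WT1, to the serous type. ESR1 and PGR encode the estrogen and progesterone receptors, which are nuclear receptors, and PGR is a well-known estrogen-induced gene. MUC1 is a membrane mucin of glandular epithelia, MSLN (mesothelin) and FOLR1 (folate receptor alpha) are surface proteins held by a lipid anchor, and EPCAM is an epithelial adhesion molecule. Clear cell carcinomas of the ovary are usually PAX8-positive and negative for WT1 and the hormone receptors.

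All 8 measured markers were low in ES-2 cells. In RPKM, a count scaled by gene length and by library depth that allows genes to be compared, none reached 1 in either shCtl library, and MUC1 was the only marker above 1 in the shM2-3 libraries. MUC1 had the highest shCtl level, 0.826 ± 0.0462 RPKM (SD, n = 2), and 40.2% of the genes of the table were lower. PGR followed at 0.325 ± 0.00385, ESR1 at 0.297 ± 0.0738, WT1 at 0.274 ± 0.164 and PAX8 at 0.120 ± 0.0679 RPKM (SD, n = 2 for each). The PAX8 level placed 26.2% of genes below it. EPCAM, MSLN and FOLR1 stood at the bottom, with 6 counts or fewer in each of the 4 libraries. In this order the shCtl values of MUC1 and PGR, of PAX8 and EPCAM, and of EPCAM and MSLN did not overlap, whereas those of PGR and ESR1, ESR1 and WT1, WT1 and PAX8, and MSLN and FOLR1 did. In bulk RNA, fewer cells that express a gene and less RNA per cell cannot be told apart.

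**Figure D1:**
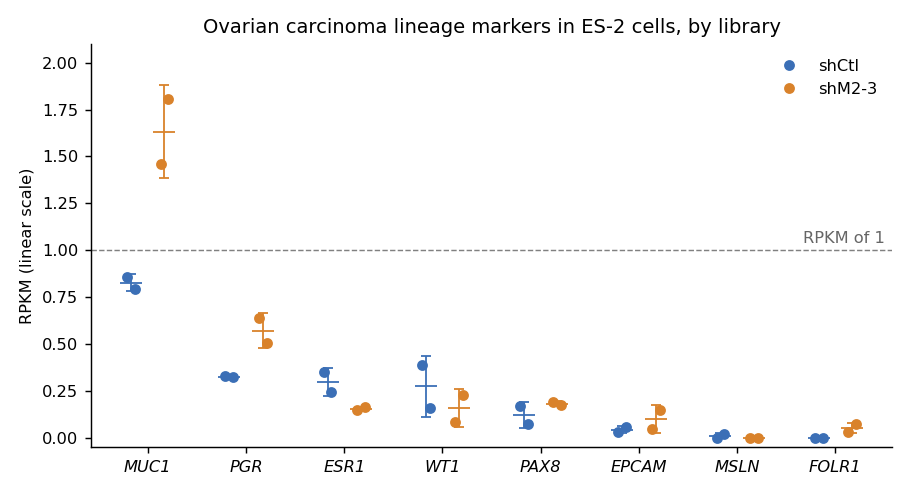
RPKM (vertical axis, linear) of the 8 measured markers in each shCtl (blue) and shM2-3 (orange) library, with the mean and SD of 2 libraries and a dashed line at an RPKM of 1. The shM2-3 libraries for MUC1, at 1.46 and 1.81, are the only points above the line.

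The change in shM2-3 cells was measured with edgeR's quasi-likelihood test, adjusted by the Benjamini-Hochberg method over all genes tested, and a call required an adjusted p of at most 0.05 together with a change of at least 2 times. Of the 8 markers, 1, MUC1, passed the limit of an RPKM above 1 in at least 1 library, and it did so only through its shM2-3 libraries. It was called higher, where 9.24% of all genes tested were called higher and 8.93% lower (36.3% and 36.4% without the fold limit). Since the limit let MUC1 in only through the group where it was high, this count carries no weight of its own. With edgeR's filterByExpr, which keeps genes by their counts, 5 markers could be tested. Of these, MUC1 was called higher and 0 were called lower, where 10.9% and 10.0% of all genes were. Without the fold limit, MUC1 and PGR were higher and ESR1 was lower, beside 33.6% and 33.8% of all genes, and PAX8 and WT1 did not pass. The values of PAX8, WT1, ESR1 and PGR below come from this wider fit. MSLN, FOLR1 and EPCAM entered neither fit.

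The windows before the transcription starts of the 3 markers that passed the test are shown because the YM fusion works through TEAD proteins, which bind the letters GGAATG, and because PGR is a target of the estrogen receptor. Each line gives the 250 bases before a RefSeq start (GRCh38.p14), read 5′ to 3′ on the gene's strand, with matches to GGAATG on either strand in capitals. MUC1 (chr1:155192916-155193165, minus strand) has a match that begins 140 bases before the start. Of 6 ESR1 windows, the only one with a match is given (chr6:151805455-151805704, plus strand), where the complement lies 44 bases before the start. None of the 3 PGR windows has a match, and the window of the outermost start is given (chr11:101129814-101130063, minus strand).
MUC1: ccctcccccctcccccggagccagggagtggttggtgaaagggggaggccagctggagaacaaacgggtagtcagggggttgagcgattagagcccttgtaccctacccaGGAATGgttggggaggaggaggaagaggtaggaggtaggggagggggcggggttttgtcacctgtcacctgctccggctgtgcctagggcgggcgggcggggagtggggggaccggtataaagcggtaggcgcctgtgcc
ESR1: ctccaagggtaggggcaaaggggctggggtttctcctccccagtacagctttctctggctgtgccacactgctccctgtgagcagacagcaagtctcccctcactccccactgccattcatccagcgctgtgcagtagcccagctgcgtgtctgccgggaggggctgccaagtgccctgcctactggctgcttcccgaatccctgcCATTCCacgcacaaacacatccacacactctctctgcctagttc
PGR: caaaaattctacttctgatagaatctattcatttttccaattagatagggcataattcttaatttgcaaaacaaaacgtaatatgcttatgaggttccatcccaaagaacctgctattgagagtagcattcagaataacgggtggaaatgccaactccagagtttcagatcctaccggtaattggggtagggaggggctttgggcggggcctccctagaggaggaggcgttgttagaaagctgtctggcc
The RefSeq table held windows for 5 markers, and MSLN, FOLR1 and EPCAM were not in it. With 50 bases after the start included, GGAATG was found in 4 of their 16 windows, in MUC1, WT1 and ESR1, while 14.0% of all 35116 windows held it. Both MUC1 windows are among the 4, and they overlap and share the same match. The estrogen response element (GGTCA, then 3 free letters, then TGACC), which reads the same on both strands, was in 0 of the 16 windows and in 0.057% of all windows. A match is a description of the letters and not a binding site.

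MUC1 (chromosome 1, 155185824 to 155192915) carried the largest change among the markers tested. It had 82 and 77 counts in the shCtl libraries and 170 and 191 in the shM2-3 libraries. The corresponding RPKM values were 0.859 and 0.793, then 1.46 and 1.81, so both shM2-3 libraries lay above both shCtl libraries. The mean went from 0.826 ± 0.0462 to 1.63 ± 0.247 RPKM (SD, n = 2), and the log2 fold change in the wider fit, which MUC1 entered through both groups, was 1.03 ± 0.197 (standard error) with an adjusted p of 0.000506 in edgeR's test. Over the genes above the RPKM limit it was 1.045 ± 0.204. These values sit close to the fold limit. In the fit above the RPKM limit, the call was lost without shCtl replicate 2 (0.985) and without shM2-3 replicate 2 (0.878), although the adjusted p stayed under 0.05. The nearest gene, TRIM46, a microtubule-associated protein gene 853 bases away, was also higher, with 139 and 185 counts under shCtl and 305 and 270 under shM2-3 (log2 fold change 0.69, adjusted p = 0.00137 from edgeR). The gene most like MUC1 over the 4 libraries, by Euclidean distance of log2(RPKM + 0.1), was DISP2 (distance 0.195), with RPKM values of 0.856 and 0.732 in shCtl and 1.36 and 1.64 in shM2-3.

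Other mucins were near 0 apart from CD164. Of 17 mucin and sialomucin genes, 13 had a row, and 6 of these had 3 counts or fewer in every library. Only CD164 (endolyn), a broadly expressed sialomucin of endosomes, passed the RPKM limit, and it was higher in shM2-3 at 82.8 ± 2.30 against 57.1 ± 0.808 RPKM (log2 fold change 0.60, adjusted p = 1.46e-08 from edgeR). In the wider fit EMCN (endomucin) was also called higher, with 0 and 8 counts under shCtl and 62 and 53 under shM2-3, and it entered that fit only through shM2-3.

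PGR (chromosome 11, 101029624 to 101129813) lies between MAML2 and YAP1 on the same chromosome. The counts were 100 in each shCtl library and 237 and 170 in the shM2-3 libraries. In RPKM these were 0.327 and 0.322, then 0.635 and 0.503, and the groups did not overlap. The mean level changed from 0.325 ± 0.00385 to 0.569 ± 0.0938 RPKM (SD, n = 2). The log2 fold change was 0.86 ± 0.18 (standard error; adjusted p = 0.001 in edgeR's test), which passed the adjusted p but not the fold limit. It ranged from 0.687 to 1.005 when 1 library was left out, and every such fit kept the adjusted p under 0.05. The highest value, without shM2-3 replicate 2, also passed the fold limit. PGR-AS1 overlaps PGR in the annotation, and reads of antisense partners cannot be told apart without strand.

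ESR1 (chromosome 6, 151656672 to 152129619) moved the other way. Its counts were 94 and 67 under shCtl and 48 in each shM2-3 library. The RPKM values were 0.349 and 0.245 in shCtl and 0.146 and 0.161 in shM2-3, with both shM2-3 libraries below both shCtl libraries. The mean was 0.297 ± 0.0738 in shCtl and 0.153 ± 0.0108 RPKM in shM2-3 (SD, n = 2), and the log2 fold change was -0.90 ± 0.295 (standard error; adjusted p = 0.0163 in edgeR's test). The result did not pass the fold limit, although it did without shCtl replicate 2 (-1.141, adjusted p = 0.00475 from edgeR). It lost its adjusted p without shCtl replicate 1 (-0.62, adjusted p = 0.166 from edgeR) and without shM2-3 replicate 1 (-0.82, adjusted p = 0.0726). ESR1 overlaps SYNE1, a large gene of the nuclear envelope, which had 933 and 942 counts under shCtl and 786 and 645 under shM2-3 (log2 fold change -0.53, adjusted p = 2.22e-05 from edgeR). SYNE1 passed the RPKM limit only through shCtl. The part of SYNE1 reads in the ESR1 value was not tested.

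Most genes that work with the hormone receptors were more abundant than ESR1 and PGR themselves. Of 15 other steroid receptors and coregulators, 11 passed the RPKM limit, and 7 of these were higher and 4 lower at an adjusted p of 0.05 or less, beside 36.3% and 36.4% of all genes. Their median log2 fold change was 0.52, beside -0.004 for all genes tested. NRIP1, a corepressor that binds the estrogen receptor, was called higher (1.69), and NR3C2, the mineralocorticoid receptor, was called lower (-1.105, but -0.588 and not called by limma on log2(RPKM + 1)). NR3C2 passed the RPKM limit only through shCtl. The glucocorticoid receptor NR3C1 rose from 8.66 ± 0.267 to 12.9 ± 0.140 RPKM (adjusted p = 2.77e-08 from edgeR). The coactivators NCOA2 (0.99) and NCOA3 (0.94) rose, and the membrane-associated progesterone-binding proteins PGRMC1 (-0.86) and PGRMC2 (-0.61) fell. FOXA1, a pioneer factor for the estrogen receptor, had 46 and 41 counts under shCtl and 12 and 7 under shM2-3, and was called lower in the wider fit (log2 fold change -2.345). FOXA1 entered that fit only through shCtl. ESR2, the second estrogen receptor gene, had 20 and 14 counts against 11 and 4, and did not pass (adjusted p = 0.0684 from edgeR).

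Of 8 known estrogen receptor targets, 4 passed the RPKM limit, with 1 lower and 2 higher at an adjusted p of 0.05 or less, beside 36.4% and 36.3% of all genes. GREB1, an estrogen-induced cofactor of the receptor, fell from 2.05 ± 0.310 to 0.479 ± 0.0189 RPKM (log2 fold change -2.03). GREB1 passed the RPKM limit only through shCtl. IGFBP4, which binds insulin-like growth factors, had the highest value, 2.56, with 10 and 24 counts under shCtl and 119 and 103 under shM2-3, and it passed the RPKM limit only through shM2-3. In the wider fit CA12, a carbonic anhydrase, was called higher (1.79, adjusted p = 0.00258 from edgeR), with 20 and 13 counts under shCtl and 49 and 78 under shM2-3. The levels of XBP1, a factor of the unfolded protein response, were 58.5 ± 1.12 and 57.2 ± 0.988 RPKM (log2 fold change 0.03, adjusted p = 0.521 from edgeR). PGR, itself such a target, was higher while ESR1 was lower.

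**Figure D2:**
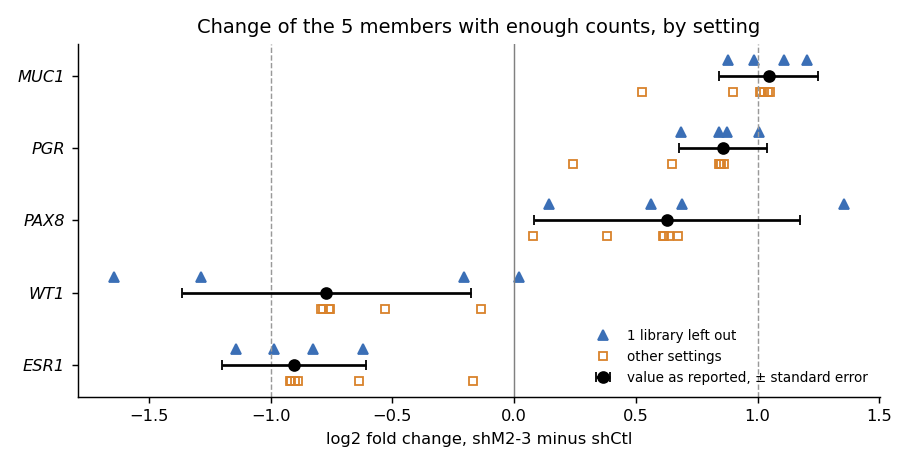
Log2 fold change (horizontal axis, shM2-3 minus shCtl) of the 5 markers with enough counts to test, from the fit over RPKM above 1 for MUC1 and from the filterByExpr fit for the others, with its standard error (black), the values with 1 library left out (blue triangles) and under other settings (orange squares); dashed lines mark a fold change of 2. MUC1 and PGR stay above 0 in every setting shown and ESR1 below it, while WT1 reaches 0.021 without shCtl replicate 1.

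PAX8 (chromosome 2, 113215997 to 113278921) was detected at a few counts. The shCtl libraries had 16 and 7 counts and the shM2-3 libraries 22 and 18. The RPKM values were 0.168 and 0.0725 in shCtl and 0.189 and 0.171 in shM2-3, so the groups did not overlap, although shCtl replicate 1 lay just under the shM2-3 libraries. The mean was 0.120 ± 0.0679 and 0.180 ± 0.0129 RPKM (SD, n = 2). The log2 fold change of 0.63 (standard error 0.545) did not pass (adjusted p = 0.326 in edgeR's test). The exact 95% Poisson interval, which covers counting error only, ran from 2.81 to 14.4 for the 7 counts and from 13.8 to 33.3 for the 22. PAX8-AS1 overlaps PAX8, and it had 3, 4, 3 and 14 counts in the same order of libraries.

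Some other transcription factors listed for Müllerian or ovarian epithelium were present at higher levels than PAX8, but GATA4 was not. GATA4 had 0 counts in each shCtl library and 2 and 3 in the shM2-3 libraries. SOX17, PAX2 and EMX2 had no row and were not analysed. Of 10, 7 had a row, and of the 6 above the RPKM limit 3 were lower and 2 higher at an adjusted p of 0.05 or less (36.4% and 36.3% over all genes), with a median log2 fold change of -0.08 beside -0.004 for all genes. BNC1, a zinc finger factor of the surface epithelium and mesothelium, was the only one called, from 18.9 ± 0.241 to 4.15 ± 0.613 RPKM (log2 fold change -2.12, adjusted p = 3.1e-11 from edgeR). The homeobox gene MEIS2 had the highest value (0.47), and the nuclear receptor NR2F2 (COUP-TFII) went from 17.6 ± 0.0938 to 21.4 ± 0.822 RPKM.

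WT1 (chromosome 11, 32387775 to 32435539) varied within the groups as well as between them. It had 34 and 14 counts under shCtl and 9 and 22 under shM2-3. The RPKM values were 0.390 and 0.158 in shCtl and 0.0843 and 0.228 in shM2-3, so the groups overlapped. The mean was 0.274 ± 0.164 and 0.156 ± 0.101 RPKM (SD, n = 2), and the log2 fold change of -0.77 (standard error 0.594) did not pass (adjusted p = 0.269 in edgeR's test). The direction rested on shCtl replicate 1: without it the value was 0.02. WT1-AS, which overlaps the 5′ part of the locus, had 5 and 0 counts under shCtl and 4 and 3 under shM2-3.

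Among 9 partners and targets of WT1, 8 had a row and 6 were tested, with 2 lower and 2 higher at an adjusted p of 0.05 or less, near the 36.4% and 36.3% of all genes. Both lower genes encode proteins that bind WT1 and repress its activity. BASP1 fell from 285 ± 9.80 to 54.8 ± 2.68 RPKM (log2 fold change -2.32, adjusted p = 1e-13 from edgeR) and PAWR from 12.3 ± 0.112 to 2.58 ± 0.223 RPKM (log2 fold change -2.185). The sialomucin PODXL (podocalyxin), a target of WT1 in the kidney, had the highest value (0.36).

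EPCAM (chromosome 2, 47369311 to 47387020) had 1 and 2 counts under shCtl and 2 and 6 under shM2-3. Summed over the libraries of a group, these were 3 and 8 counts, and the ratio after scaling for depth was 2.36. Its exact 95% interval, which covers counting error only, ran from 0.566 to 13.8, so a change was not detectable at this depth. Of 20 keratin, junction and splicing genes, 18 had a row and 4 passed the RPKM limit, and 3 of these were lower and 0 higher at an adjusted p of 0.05 or less, beside 36.4% and 36.3% of all genes. The simple epithelial keratins KRT7 (268 ± 1.41 to 107 ± 0.537 RPKM) and KRT8 (71.9 ± 1.99 to 29.4 ± 0.450 RPKM) were called lower, and KRT18 went from 297 ± 3.26 to 177 ± 2.22 RPKM (log2 fold change -0.68). CDH1, which encodes E-cadherin, had 0 and 4 counts under shCtl and 0 and 3 under shM2-3. KRT19, another simple epithelial keratin, was also low, at 4 and 7 counts under shCtl and 2 and 13 under shM2-3. KRT7, KRT8 and KRT18 were thus high in cells in which EPCAM, CDH1 and KRT19 were near 0.

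FOLR1 (chromosome 11, 72189709 to 72196323) was at 0 counts in each shCtl library and at 1 and 2 counts in the shM2-3 libraries. A count of 0 allows up to 3 counts, which for FOLR1 would be 0.118 and 0.116 RPKM in the shCtl libraries, and both groups were at or under that floor, so no fold is given. MSLN (chromosome 16, 760734 to 768865) had 1 count in all, in shCtl replicate 2. For MSLN 3 counts would be between 0.0471 and 0.0576 RPKM in the 4 libraries. Neither antigen could be compared between the groups at this depth.

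**Figure D3:**
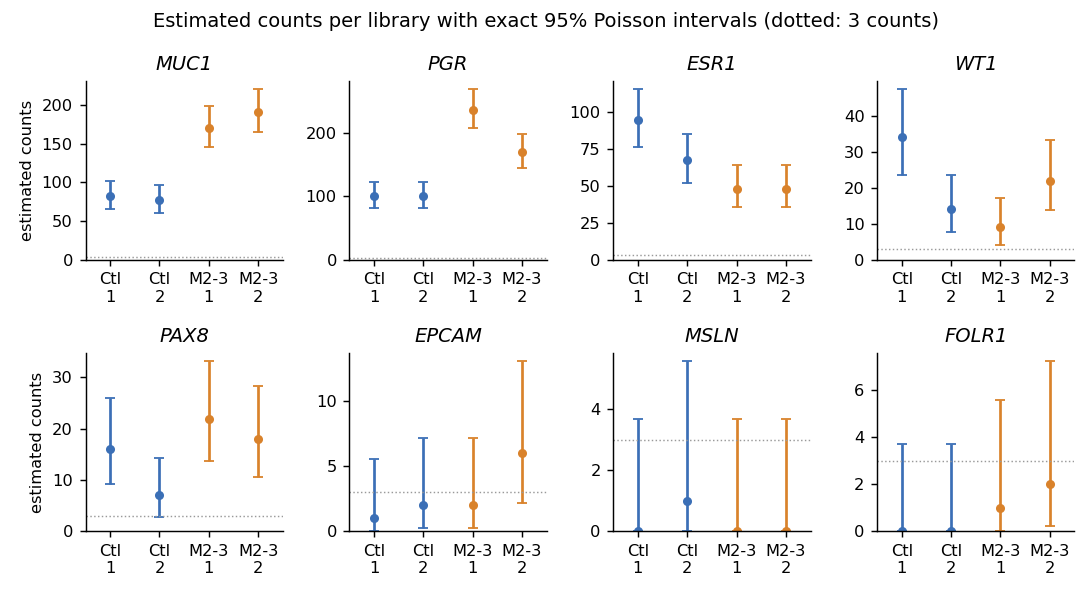
Estimated counts, not scaled for depth (vertical axes, each with its own linear scale), of the 8 markers in the 2 shCtl (blue) and 2 shM2-3 (orange) libraries, with exact 95% Poisson intervals for counting error and a dotted line at 3 counts. The intervals of MUC1 and PGR do not overlap between the groups, whereas those of WT1 and PAX8 do. For ESR1, the interval of shCtl replicate 2 (51.9 to 85.1) overlaps that of each shM2-3 library (35.4 to 63.6). MSLN and FOLR1 lie below the dotted line.

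Folate can also enter by carriers, and these were expressed. SLC19A1, the reduced folate carrier, was higher in shM2-3, at 5.08 ± 0.0419 against 4.04 ± 0.788 RPKM (log2 fold change 0.40, adjusted p = 0.00499 from edgeR). SLC46A1, also a folate carrier, was lower, at 0.848 ± 0.0491 against 1.185 ± 0.124 RPKM (log2 fold change -0.416, adjusted p = 0.041 from edgeR). It passed the RPKM limit only through shCtl. FOLR3, a secreted folate receptor, had 1 count in all. Of 16 genes of folate uptake and metabolism, 14 were tested, and 10 were lower and 2 higher at an adjusted p of 0.05 or less (36.4% and 36.3% over all genes), with a median log2 fold change of -0.43 beside -0.004 for all genes. The mitochondrial enzyme MTHFD2 (-1.09) and thymidylate synthase, TYMS (-1.04), were called lower.

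Further ovarian carcinoma antigens resembled MSLN and FOLR1 in being near 0. Of 12, 10 had a row and 6 had 3 counts or fewer in every library, among them WFDC2, which encodes the serum marker HE4, with 2 and 2 counts under shCtl and 1 and 0 under shM2-3. CDH6, a kidney and ovarian cadherin, was called higher, from 48 and 65 counts to 722 and 677 (0.239 ± 0.0481 to 2.57 ± 0.0641 RPKM, log2 fold change 3.49), and passed the RPKM limit only through shM2-3. The surface antigen CD24 was at 5.65 ± 0.00904 and 5.07 ± 0.186 RPKM and did not pass (adjusted p = 0.409 from edgeR).

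The label of clear cell carcinoma was checked against 10 markers of that type, of which 9 had a row and 5 passed the RPKM limit. NAPSA (napsin A), a protease used to name the type, had 6 and 1 counts under shCtl and 9 and 13 under shM2-3. TFPI2, a protease inhibitor, was at 81.4 ± 0.507 and 83.3 ± 0.275 RPKM, GLRX (glutaredoxin) fell from 40.0 ± 1.24 to 16.6 ± 0.648 RPKM, and ANXA4 (annexin A4) had the highest value (0.35). Some genes of the type were thus expressed while napsin A was near 0, and the cells are called ES-2 cells here.

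**Figure D4:**
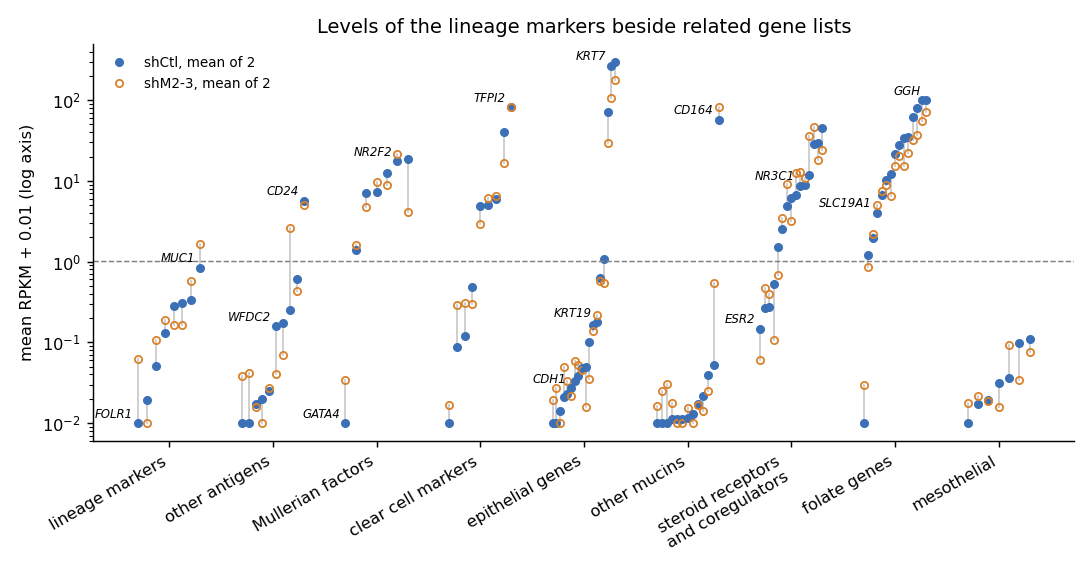
Mean RPKM + 0.01 (vertical axis, log scale) in shCtl (filled blue) and shM2-3 (open orange), n = 2 each, for the lineage markers and 8 related gene lists, 1 pair of joined points per gene, ordered by shCtl level within a list, with a dashed line at an RPKM of 1. Apart from MUC1 in shM2-3 and CD164, the lineage markers, the other mucins and the mesothelial genes lie under the line, while KRT7, TFPI2 and most folate genes lie far above it.

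Markers of other cell types were also read. The 7 mesothelial genes summed to between 0.248 and 0.252 RPKM in shCtl and to 0.173 and 0.2395 RPKM in shM2-3, with 4 genes at 3 counts or fewer in every library and 0 tested. The 3 germ cell genes summed to at most 0.176 RPKM. Of 6 fibroblast genes, 2 were tested: THY1 was lower (-0.56) and PDGFRA called higher (1.79), while DCN had at most 6 and LUM at most 2 counts in a library. Of 7 leukocyte genes, PTPRC, which encodes CD45, had 3 counts or fewer, CD68 was lower (-0.505), CD14 was called higher in the wider fit (3.29, from 3 and 4 counts to 42 and 37), and LYZ had 33 and 15 counts under shCtl and 100 and 5 under shM2-3. Of 5 endothelial genes, CDH5 was called lower (-1.17) and PECAM1 higher (5.07), and of 6 sex cord and granulosa genes AMH was higher (0.99) and INHA (0.325) did not pass. CD14 entered the wider fit, and PECAM1 either fit, only through shM2-3; PECAM1 had 6 and 5 counts under shCtl and 256 and 163 under shM2-3. The libraries were labelled as ES-2 cells, and whether any other cells had a part in the values of the lineage markers was not tested.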

How the data were processed

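RNA-seq of 4 ES-2 libraries was analysed, grouped as shCtl or shM2-3 by their labels. The authors aligned the reads to hg38 with HISAT2 2.0.4 and quantified RefSeq genes in Partek 7.18, per the labels and the study's methods. The estimated counts were deposited without normalization, and need not be whole numbers. The deposited RPKM values equal these counts divided by a length per gene and a factor per library. The labels give 96 hours and the paper a shorter time.

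Estimated counts were rounded and tested with edgeR 4.0.16 in R 4.3.3 (TMM, glmQLFit, glmQLFTest) over the 12157 genes whose RPKM exceeded 1 in any library, and over the 14436 genes that filterByExpr keeps. The standard error is the log2 fold change divided by the square root of F. Scripts were checked on simulated counts. Alternatives were total counts, DESeq2 1.42.0, limma 3.58.1 on log2(RPKM + 0.1) and log2(RPKM + 1), no filter, a fold limit of 1.5, a replicate block and leaving out each library. Named genes were the markers, the lowest and highest tested gene of each list, and list genes at an RPKM of 10 or more whose role bears on a marker. Others (NCOA2, FOXA1, ESR2, EMCN, CA12, CD14, KRT19, FOLR3, SLC46A1, GATA4, CDH1, WFDC2, NAPSA, PTPRC, DCN, LUM, TRIM46, SYNE1) were added with values in view. Some list genes are not reported here. Markers and lists were chosen with earlier results of these data known. SD values rest on 2 labelled biological replicates.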

Additional observations from a re-analysis of the deposited data

How the results depend on the processing

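Over all genes, a fold limit of 1.5 gave 2302 lower and 2296 higher calls against 1086 and 1123 at 2, and limma on log2(RPKM + 1) gave 596 higher. No marker was called higher (0) by limma on either RPKM scale, where MUC1 was at 0.897 and 0.525 with adjusted p of 0.00525 and 0.00486. With each library left out in turn, the count of markers called higher ran from 0 to 1 and MUC1 from 0.878 to 1.202. With filterByExpr and with no filter, 3 markers against 1 passed the adjusted p of 0.05 in edgeR's test. The alternatives below for markers under the RPKM limit were chosen after seeing the data. ESR1 lost its adjusted p in limma at -0.636 and -0.168 (adjusted p = 0.064 and 0.0775) and ran from -1.141 to -0.621 with libraries left out (-0.824 without shM2-3 replicate 1). WT1 ran from -1.642 to 0.021, with the reversal without shCtl replicate 1. PAX8, which did not pass in any fit, ran from 0.143 to 1.354 in the same fits. Leaving out shM2-3 replicate 1 put LYZ at -2.298, and leaving out shM2-3 replicate 2 at 1.835, NR3C2 lost its call at -0.588 in limma on log2(RPKM + 1), and XBP1 turned to -0.002 with total counts and -0.032 on both limma scales. The causes were not tested. Of 803 values of list genes and list counts under the alternatives, 778 were the same. A gene was the same if its direction and its call were kept, and a list count if it stayed within 1.5 times. For a gene below the fold limit, a change in the adjusted p alone did not count as a change.

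Samples with the same replicate number showed no shared shift across genes (correlation of their deviations 0.011 over 12475 genes, 2 pairs). Whether they shared an infection or a preparation cannot be read from this value. With a replicate block MUC1 was 1.041, PGR 0.851 and ESR1 -0.889, and 1079 genes were lower and 1123 higher. At this depth MSLN, FOLR1 and EPCAM entered only the fit with no filter, and they did not pass the adjusted p of 0.05 there in edgeR's test.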

Other observations

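PGR lies in the stretch of chromosome 11 between MAML2 (ends at 96343195) and YAP1 (starts at 102110447), 0.981 Mb from YAP1 and 4.69 Mb from MAML2. This is the stretch that an inversion joining YAP1 to MAML2 would turn. The stretch was looked at after the PGR values were seen. Of its 11 genes in the table, 8 could be tested with filterByExpr, and 3 were higher, 3 were lower and 2 did not pass an adjusted p of 0.05 in edgeR's test. Over all genes of that fit, 33.6% were higher and 33.8% lower at the same limit, so the stretch was near the share of all genes. ARHGAP42, next to PGR, rose from 9.44 ± 0.253 to 15.5 ± 0.485 RPKM (SD, n = 2), from 1906 and 1866 counts to 3843 and 3328. CNTN5, a neural adhesion gene, had 22 and 28 counts against 80 and 43. On the YAP1 side of PGR, the cation channel gene TRPC6 fell from 55 and 60 counts to 19 and 9 (log2 fold change -2.20). TRPC6 entered the wider fit only through shCtl. The cilium genes CEP126 (-0.575) and CFAP300 (-0.73) were also lower. The nearest tested genes on either side of PGR, ARHGAP42 and TRPC6, thus moved in opposite directions.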
